A study of Mus musculus with 14 samples.

Results

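The *Irx*, *Dlx*, *Msx*, *Pitx*, *Pbx* and *Meis* families and the sine oculis homologues encode homeodomain transcription factors that pattern the embryo outside the HOX clusters. They were followed here through the switch of epidermal stem cells (EpdSCs), the progenitors of the innermost layer of the epidermis, under sustained SOX9, a transcription factor of the hair follicle. Members were all genes of the deposited table whose symbol is one of these family names with a number at its end, and 31 of its 54332 genes met this rule, of which 28 are described. Of the 28, 17 were detected, meaning that both libraries of at least 1 timepoint held at least 1 TPM, and 11 were not. TPM are read shares scaled by transcript length and set to a common total, so they compare genes within a library, but they keep no sequencing depth, and no counting interval could be given.

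The EpdSCs were sorted from back skin of CD1 mice of the genotype *K14rtTA; TRE-myc-Sox9*, labelled male, in which the *Krt14* promoter drives the doxycycline-responsive activator rtTA in skin epithelium and the activator switches on a MYC-tagged *Sox9*. All mice, the D0 controls included, carried both transgenes. Doxycycline was given from postnatal day 21, and cells were collected on that day (D0), and after 1 week (W1, postnatal day 28), 2 weeks (W2, postnatal day 35) and 6 weeks (W6, postnatal day 63). For W12 the study grafted newborn skin of these mice onto female immunocompromised Nude mice, let it heal and then induced for 12 weeks, so that graft and duration cannot be told apart at W12. The time course holds no uninduced libraries of the later ages, so age and induction cannot be told apart at any timepoint. The sort removed cells with CD31, CD45, CD117 or CD140a and kept CD49f-high, CD34-negative, Ly6A-high cells. Each timepoint had 2 libraries, labelled as biological replicates.

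Homeodomain proteins bind short AT-rich DNA words and gain specificity from partners. IRX, PBX and MEIS proteins belong to the TALE class, named for an extended loop in the homeodomain. PBX and MEIS proteins bind DNA as cofactors of HOX and other homeodomain proteins, and IRX proteins act in the patterning of heart, limb and nervous system. DLX and MSX proteins work downstream of BMP signals in face, limb, tooth and skin appendages, sine oculis proteins act with EYA and DACH cofactors, and PITX proteins pattern the pituitary and the hindlimb.

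Some features of the libraries touched every comparison. The transgene was listed at 89.6 and 45.6 TPM in the D0 libraries and was highest at W1, at 3387 and 3414 TPM. It then stood at 1892 and 1469 TPM at W2, 1108 and 859 at W6, and 606 and 903 at W12. Of the 6 basal keratinocyte markers, *Krt14* went from 29902 and 31097 TPM at D0 to 35371 and 37666 at W12. It stood at 19997 TPM or more in every library. *Itgb1* went from 123 and 130 TPM at D0 to 196 and 241 at W12, and *Ly6a* from 756 and 565 to 1168 and 1109. *Itga6* went from 196 and 290 TPM to 166 and 166, and *Krt5* from 14774 and 14609 to 7833 and 7343. *Krt15* went from 11241 and 11928 TPM to 322 and 242. D0 replicate 2 listed *Xist* at 4.61 TPM and 4 Y-linked genes at 0.0382 TPM or less, against its label of male. Changes of the members and of the partner lists against D0 are therefore given with and without it. The W12 libraries also listed *Xist*, at 5.51 and 3.50 TPM, beside Y-linked transcripts. Immediate-early and stress genes (19 listed) summed to 35981 and 59068 TPM at D0 and to between 7231 and 15663 TPM later. The 4 endothelial markers summed to 32.5 and 75.6 TPM at W12, led by *Pecam1* at 26.1 and 59.8 TPM, and to at most 1.42 TPM elsewhere. The fibroblast list summed to 67.3 and 132 TPM at W12 and 56.4 TPM in W6 replicate 2, from *Vim* and *Dcn*, with *Pdgfra*, *Col1a1* and *Lum* at 0.481 TPM or less in every library. *Cd34*, whose protein the sort selected against, was at 0.383 TPM or less up to W2, at 2.66 and 5.04 TPM at W6 and at 16.5 and 32.0 TPM at W12. The immune list summed to 148 and 163 TPM at W12 and to at most 36.7 TPM elsewhere, from *Cd74* and *H2-Aa*, with *Ptprc* at 0.327 TPM or less in every library. The differentiating keratinocyte list summed to between 11937 and 13558 TPM at W6 and W12 and to at most 7349 TPM before, led by *Krtdap*, and the hair matrix and shaft list to between 4.06 and 13.1 TPM and, before, 24.7 TPM or more. The melanocyte list summed to between 11.8 and 13.5 TPM in W6 replicate 2 and at W12 and to at most 7.21 TPM elsewhere. The sebocyte list was at 134 and 143 TPM at D0 and at 221 TPM or more later, led by *Mgst1*. From D0 to W12, *Mgst1* went from 44.2 and 28.3 TPM to 158 and 225, and *Plin2* from 27.6 and 26.7 to 88.8 and 98.6. *Fasn* went the other way, from 34.7 and 57.1 TPM to 7.53 and 10.5. *Scd1* went from 27.0 and 30.6 TPM to 18.9 and 19.8, but stood at 33.3 TPM or more at W2 and W6. *Pparg* stayed at 1.11 TPM or less. The muscle and pericyte list was at most 3.62 TPM at D0 and 7.60 TPM or more later. The Merkel and neural list was at 0.491 TPM or less up to W2, 0.863 and 3.16 TPM at W6 and 2.38 and 4.08 TPM at W12. The part of these features in the results was not tested.

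*Irx* genes held most of the members' transcripts. The 6 *Irx* members had a mean sum of 291 TPM at D0 that stood at 410 and 401 TPM in the first weeks (W1 and W2), at 348 TPM at W6 and at 158 TPM in the grafts, whereas the 28 members together summed to 338 TPM at D0 and 205 TPM at W12. The 3 *Pbx* genes described summed to 16.5 TPM at D0, the 3 *Meis* genes to 11.9, the 3 *Msx* genes to 8.77, the 6 *Dlx* genes to 8.31, the 5 sine oculis genes to 2.29 and the 2 *Pitx* genes to 0.0328. The *Pitx* sum then stood at 22.7 TPM at W6, above the *Pbx* sum of 15.7 TPM at that timepoint. The W6 libraries lay apart in the *Irx* sum, with 463 TPM in replicate 1 and 232 TPM in replicate 2.

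**Figure D1:**
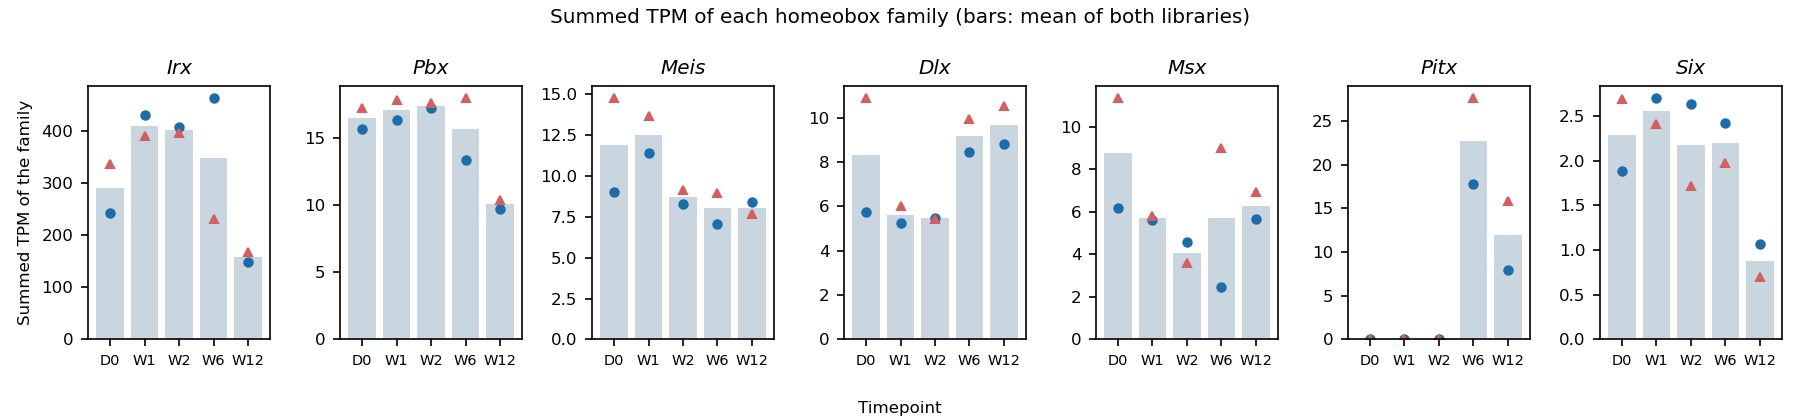
Summed TPM (vertical axis, each panel on its own scale from 0) of the described genes of each family at the 5 timepoints (horizontal axis). Bars are the mean of both libraries, circles replicate 1 and triangles replicate 2. The *Irx* sum was 148.9 and 167.9 TPM in the W12 libraries, below every other library, and the *Pitx* sum was at 0.0906 TPM or less up to W2 and at 7.99 TPM or more at W6 and W12.

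The detected members were *Irx1*, *Irx2*, *Irx3*, *Irx4*, *Irx5*, *Pbx2*, *Pbx3*, *Pbx4*, *Meis1*, *Meis2*, *Meis3*, *Dlx4*, *Dlx5*, *Msx1*, *Msx2*, *Pitx1* and *Six5*. The test took genes averaging 1 TPM or more across the time course, which left the same 17, and *Pitx1* and *Msx1* passed this filter through their late timepoints. *Meis3* was detected and passed through W1 alone, with a mean of 0.577 TPM over the other timepoints, and *Dlx4* passed through W2 (0.921 TPM over the others). A gene let in by the timepoint at which it is high had to differ there, so the calls of *Meis3* at W1, *Pitx1* at W6 and W12 and from W2 to W6, and *Msx1* at W12 are in the counts as descriptions. Of the genes described, all 3 *Pbx* and all 3 *Meis* genes were detected, 5 of 6 *Irx* genes, 2 of 6 *Dlx*, 2 of 3 *Msx*, 1 of 2 *Pitx* and 1 of 5 sine oculis genes.

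The 11 members that were not detected were *Irx6*, *Dlx1*, *Dlx2*, *Dlx3*, *Dlx6*, *Msx3*, *Pitx3*, *Six2*, *Six3*, *Six4* and *Six6*. *Irx6* was listed at 0 in all 10 libraries. *Dlx3*, a regulator of epidermal differentiation, came nearest, between 0.362 TPM in W12 replicate 1 and 1.29 TPM in W2 replicate 1. *Dlx2* reached 1.71 TPM in W12 replicate 2 but 0.734 TPM in W12 replicate 1 and no more than 0.547 TPM elsewhere. *Dlx1* stood highest in W12 replicate 1, at 0.664 TPM, and the other 7 stayed at or below 0.238 TPM, the level of *Pitx3* in W6 replicate 2.

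Change over time was tested with limma on log2(TPM + 1), in a fit across 13110 genes, with Benjamini-Hochberg adjustment over all of them, and a change was called at an adjusted *P* under 0.05. On this scale a change understates the fold of genes near or under 1 TPM. In the F test over the 4 later timepoints against D0, 13 of the 17 tested members were called, against 57.5% of all genes tested. The 13 include *Pitx1*, *Msx1* and *Meis3*, let into the test by the timepoints at which they are high, and nothing is read from the count. The 4 others were *Meis1*, *Meis2*, *Dlx4* and *Six5*. In bulk samples, fewer cells that use a gene and less of its RNA per cell cannot be told apart.

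Against D0, W1 gave 3 called members of 17 (9.89% of all genes), W2 gave 4 (15.7%), W6 gave 7 (32.4%) and W12 gave 8 (43.0%). At W1, 2 were higher and 1 was lower, beside 5.79% and 4.10% of all genes. At W2, 2 were higher and 2 lower (9.06% and 6.64% of all genes), at W6 4 and 3 (18.3% and 14.1%), and at W12 3 and 5 (17.9% and 25.1%). The balance over all genes moved with the scaling: higher changes were 58.6% of all calls at W1 and 41.7% at W12, but 47.4% and 50.3% under median-ratio scaling. These 4 comparisons share the D0 libraries. On the log2(TPM + 1) scale the members' median change was 0.13, 0.16, 0.12 and -0.37 in that order of timepoints, beside 0.09, 0.06, 0.08 and -0.08 over all genes tested. Between neighbouring timepoints, 0 members were called from W1 to W2 (0.114% of all genes, and 3 members at an unadjusted *P* under 0.05), 3 from W2 to W6 (16.3%) and 2 from W6 to W12 (20.2%). With only the libraries of the comparison in the fit, 1 member, *Irx4*, was called from W1 to W2.

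Of the 22 called changes against D0, 10 were called without D0 replicate 2 and 12 were not, with every direction kept. The 10 were those of *Pitx1* at W6 and W12, which are descriptions, *Pbx4* at all 4 timepoints, *Irx4* at W2 and W6, *Pbx3* at W6 and *Irx2* at W12. Among the members, that left *Pbx4* at W1. Over all genes tested, the share called was also lower at each timepoint without that library, and nothing is read from the number lost.

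**Figure D2:**
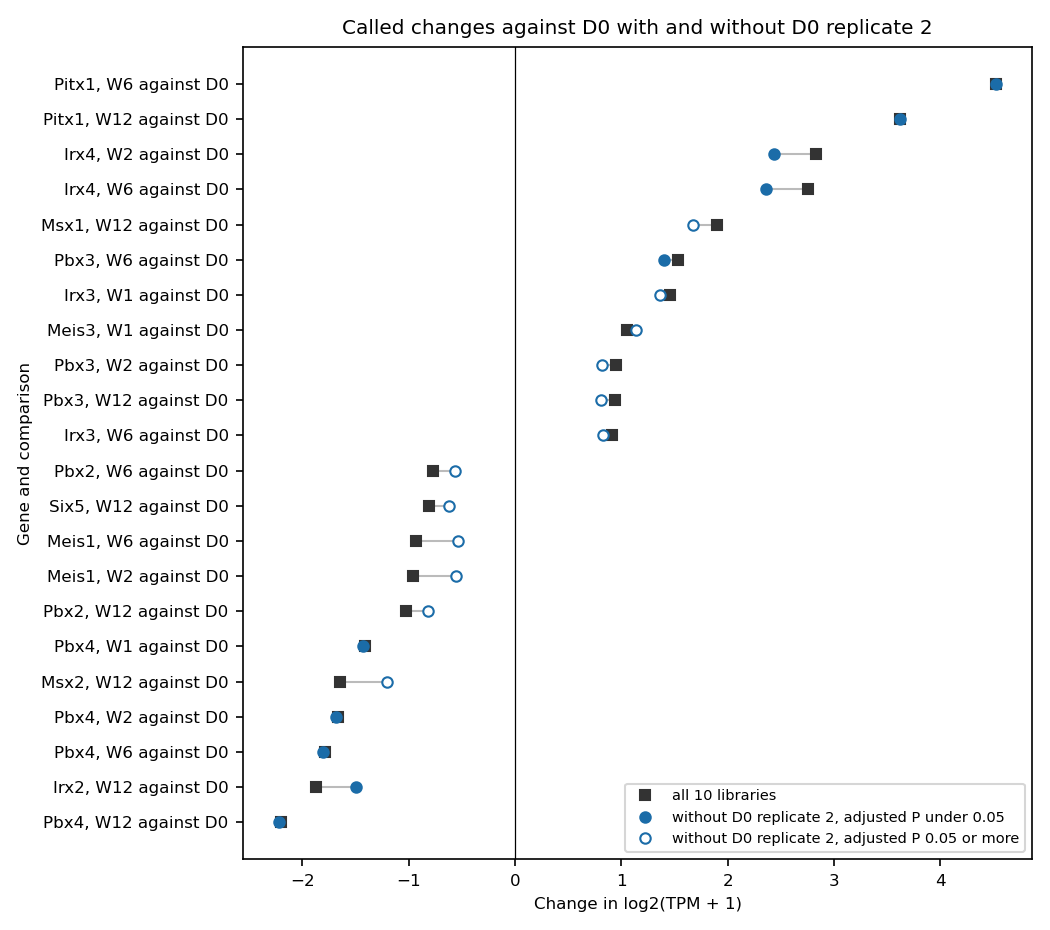
Change in log2(TPM + 1) (horizontal axis) of each member called against D0 (vertical axis, gene and comparison), with all 10 libraries (squares) and without D0 replicate 2 (circles, filled where the adjusted *P* was under 0.05). *Pitx1* and *Pbx4* moved least on leaving out that library, and *Meis1* and *Msx2* lay nearer to 0 without it.

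**Figure D3:**
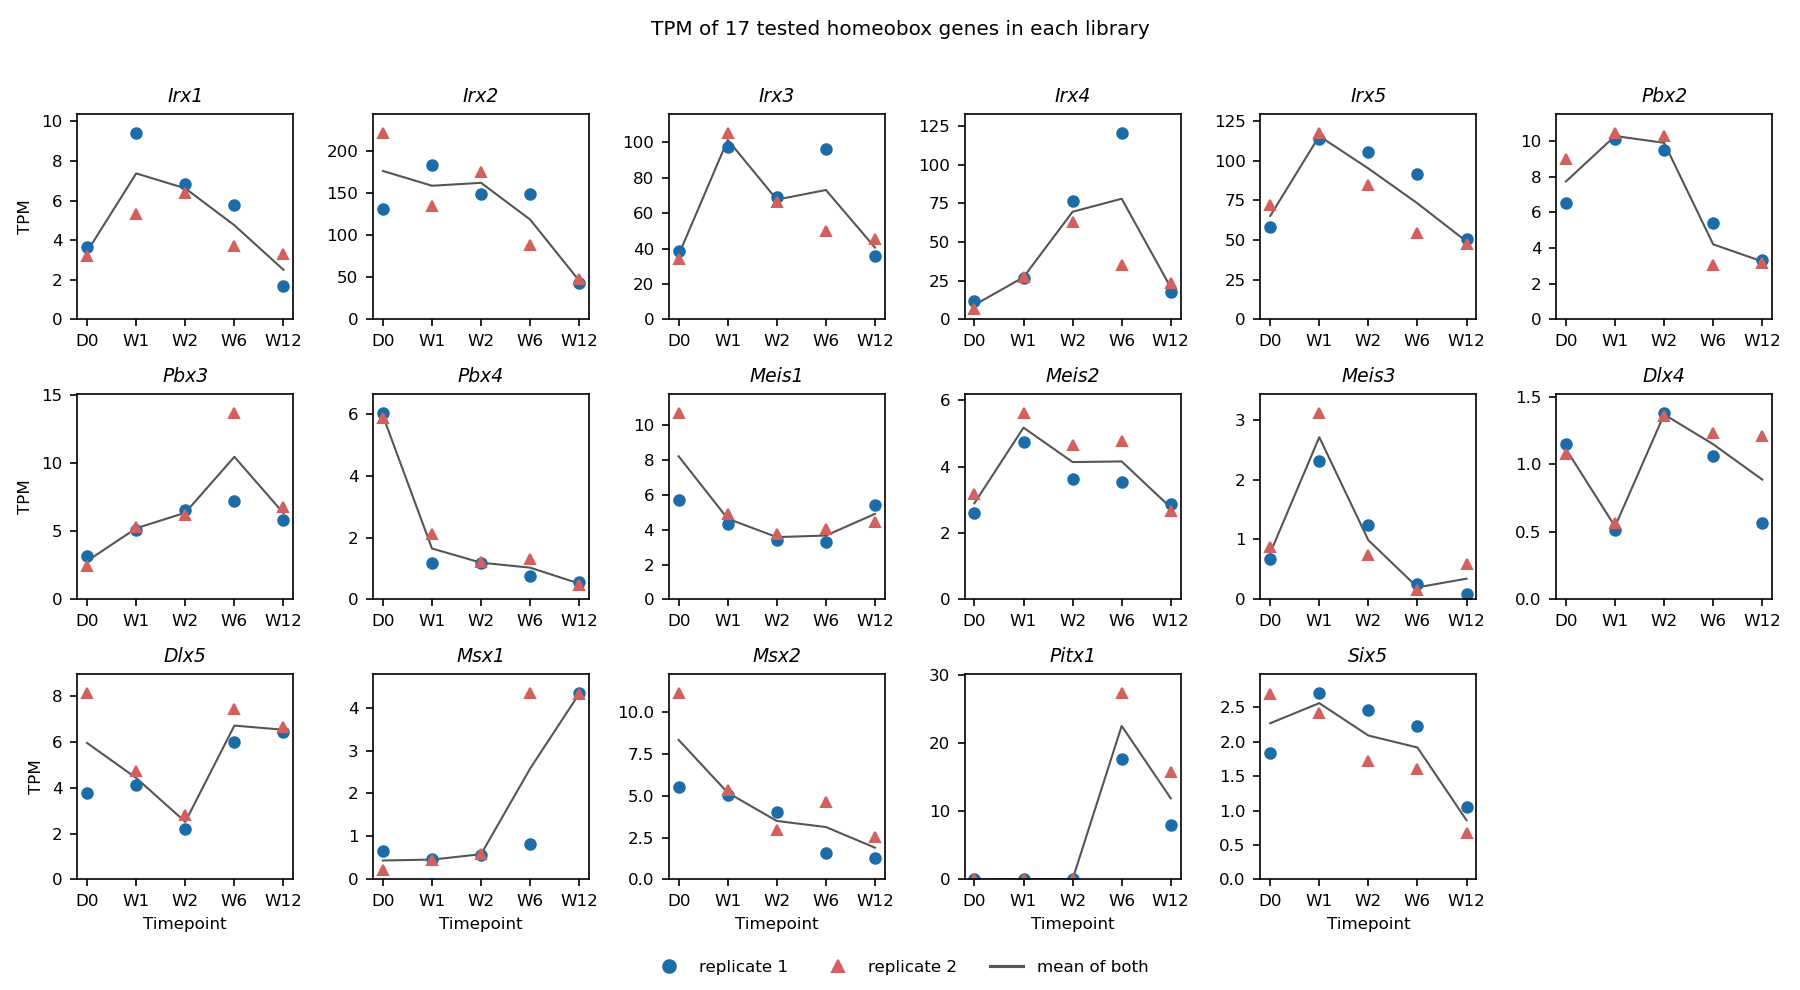
TPM (vertical axis, each panel from 0 on its own scale) of the 17 tested members in each library against timepoint (horizontal axis). Circles are replicate 1, triangles replicate 2 and the line joins the means. *Pitx1* was at 0.0906 TPM or less up to W2 and between 7.99 and 27.4 TPM later, and *Pbx4* was at 5.87 and 6.04 TPM at D0 but no higher than 2.10 TPM in every later library.

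The stretches upstream of 4 members with a called change are shown for the letters before their starts. They are RefSeq promoter windows of build GRCm38.p6, read 5′ to 3′ on the strand of the gene, and stop at the annotated start or at the first base of an annotated exon. Capitals mark CCAAT or its complement ATTGG, the CCAAT box of many promoters. *Irx2* is at chr13:72628570-72628819 on the plus strand, *Irx4* at chr13:73260247-73260478 on the plus strand, *Msx1* at chr5:37824586-37824835 on the minus strand and *Pbx4* at chr8:69832374-69832490 on the plus strand.
Irx2: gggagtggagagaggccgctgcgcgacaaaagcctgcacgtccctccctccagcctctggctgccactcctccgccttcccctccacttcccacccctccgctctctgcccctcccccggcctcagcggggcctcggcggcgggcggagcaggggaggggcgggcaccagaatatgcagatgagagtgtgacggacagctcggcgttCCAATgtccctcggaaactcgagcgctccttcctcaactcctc
Irx4: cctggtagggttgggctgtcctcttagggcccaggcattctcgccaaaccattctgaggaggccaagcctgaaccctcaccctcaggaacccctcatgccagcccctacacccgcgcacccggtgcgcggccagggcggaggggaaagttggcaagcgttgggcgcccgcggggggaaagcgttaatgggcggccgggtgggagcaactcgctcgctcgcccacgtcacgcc
Msx1: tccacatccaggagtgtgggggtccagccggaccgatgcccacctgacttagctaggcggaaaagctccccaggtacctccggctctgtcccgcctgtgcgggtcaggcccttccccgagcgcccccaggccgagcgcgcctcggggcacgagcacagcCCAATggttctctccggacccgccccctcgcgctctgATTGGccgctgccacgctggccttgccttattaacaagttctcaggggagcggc
Pbx4: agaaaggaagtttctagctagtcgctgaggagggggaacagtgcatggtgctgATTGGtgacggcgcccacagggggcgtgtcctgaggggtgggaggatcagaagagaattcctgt

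Such windows of 250 bases were found for 19 of the 28 members, 11 of them tested. They were searched on both strands for the SOX words ACAATG and ACAAAG, the MEIS and TGIF word TGACAG, the DLX and MSX word TAATTG and the PITX word TAATCC. None of these words was in the windows of *Irx2*, *Irx3*, *Irx4*, *Msx1*, *Msx2*, *Meis2*, *Pbx2* or *Pbx4*. Of the tested members, *Meis1* held ACAATG, *Meis3* held ACAAAG, and *Six5* held ACAAAG and TGACAG. Among 32817 windows of the same length, ACAATG was in 10.7%, ACAAAG in 16.5%, TGACAG in 15.9%, TAATTG in 7.17% and TAATCC in 6.25%. CCAAT was in the windows of 6 of the 11 tested members, beside 33.8% of all windows, and can share letters with the complement of TAATTG and with TAATCC. The TATA box word TATAAA was in that of *Meis2* alone among the tested members, beside 12.4% of all windows. A match describes letters and is not a bound site. Of the tested members, the windows of *Irx3*, *Msx2*, *Meis2*, *Meis3* and *Pbx2* lay wholly inside the annotated gene, past its annotated start. Those of *Irx4*, *Meis1* and *Pbx4* reached into it. Words found or absent in such stretches are not upstream of the annotated start.

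*Pitx1*, the hindlimb and pituitary factor of its family, went from no listed transcript at D0 to between 7.99 and 27.4 TPM in the W6 and W12 libraries. It was listed at 0 in both D0 libraries, at 0 and 0.0906 TPM at W1, 0.0157 and 0.0407 at W2, 17.7 and 27.4 at W6, and 7.99 and 15.8 at W12. The late libraries did not overlap the earlier ones. On the log2(TPM + 1) scale the change against D0 was 4.53 at W6 (SE 0.32, adjusted *P* = 7.08e-05) and 3.62 at W12 (SE 0.32, adjusted *P* = 8.57e-05), and no fold can be given against a group at 0. From W2 to W6 the change was 4.49 (SE 0.32, adjusted *P* = 0.000505). Since the late libraries let *Pitx1* into the test, these 3 changes are descriptions. The lower level at W12 than at W6 was not called (-0.91, adjusted *P* = 0.0806), but was without W12 replicate 2 (-1.36, adjusted *P* = 0.0369). An exon of *Pitx1* (chr13:55825051-55836192, minus strand) overlaps annotated exons of *Gm28760* on the same strand and *Gm47071* on the opposite strand, and reads of these genes may be shared. *Pitx3*, in contrast, stayed at 0.238 TPM or less.

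*Irx* genes lie in clusters on chromosome 13 (*Irx1*, *Irx2*, *Irx4*) and chromosome 8 (*Irx3*, *Irx5*, *Irx6*), and their levels followed different courses. *Irx2*, the *Irx* gene with the highest TPM at D0, stayed near its starting level to W2 and was lower at W12. Its values were 131 and 222 TPM at D0, 183 and 134 at W1, 149 and 175 at W2, 149 and 88.3 at W6, and 43.2 and 48.3 at W12. The W12 libraries were below all others. The W12 mean of 45.8 ± 3.56 TPM (SD, n = 2) was 0.260 of the D0 mean of 176 ± 64.0 TPM (change -1.88, SE 0.31, adjusted *P* = 0.00177), and without D0 replicate 2 the change was -1.499 (adjusted *P* = 0.0120). From W6 to W12 it fell by 1.31 (SE 0.31, adjusted *P* = 0.0199), a call that was lost without W6 replicate 1, W12 replicate 1 or W12 replicate 2 (adjusted *P* between 0.0742 and 0.126), under median-ratio scaling (0.0519) and with only the W6 and W12 libraries in the fit (0.0519).

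*Irx4* showed the largest rise of the *Irx* genes. It was at 11.96 and 6.46 TPM at D0, 26.8 and 27.6 at W1, 76.4 and 62.7 at W2, 121 and 35.4 at W6, and 17.9 and 23.2 at W12. Every later library was above both D0 libraries, and the W6 pair spanned the W2 pair. Mean TPM was 7.55-fold higher at W2 than at D0 (change 2.84, SE 0.49, adjusted *P* = 0.00625) and 8.47-fold higher at W6 (change 2.76, SE 0.49, adjusted *P* = 0.00404). Without D0 replicate 2 the changes were 2.44 (adjusted *P* = 0.0401) and 2.36 (adjusted *P* = 0.0318). The W6 change was 1.89 without W6 replicate 1 (adjusted *P* = 0.00758) and 3.63 without W6 replicate 2 (0.000498), and its call was lost with only the D0 and W6 libraries in the fit (0.0555). The W1 change of 1.52 missed the threshold (adjusted *P* = 0.0911), but passed it on leaving out W6 replicate 1 or 2 (0.0120 and 0.0118), as did the W12 change of 1.12 (adjusted *P* = 0.0950, then 0.0123 and 0.0121). From W6 to W12 *Irx4* fell by 1.64 (adjusted *P* = 0.0465), a call lost without either W1, W2 or W12 library or W6 replicate 1 (adjusted *P* between 0.0710 and 0.232) and under median-ratio scaling (0.0831) or quantile normalization (0.0750). The change was -0.77 without W6 replicate 1 and -2.51 without W6 replicate 2.

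*Irx3* and *Irx5*, neighbours on chromosome 8, were both highest at W1. *Irx3* was at 38.7 and 34.1 TPM at D0, 97.5 and 105 at W1, 69.2 and 66.2 at W2, 96.4 and 49.8 at W6, and 35.6 and 45.5 at W12. Its W1 mean was 2.79-fold that at D0 (change 1.46, SE 0.27, adjusted *P* = 0.0119), and the W12 libraries overlapped D0. The W1 call was lost without D0 replicate 2 (adjusted *P* = 0.0552), W1 replicate 1 (0.0602) or W1 replicate 2 (0.0986). At W6 it rose by 0.91 (SE 0.27, adjusted *P* = 0.0324), lost without either D0, W1 or W2 library or W6 replicate 1 (adjusted *P* between 0.0526 and 0.143), under median-ratio scaling (adjusted *P* = 0.0508) and with only the D0 and W6 libraries in the fit (0.161). The W6 change was 0.45 without W6 replicate 1 and 1.38 without W6 replicate 2. The W2 change of 0.88 was not called (adjusted *P* = 0.0608), but was without W6 replicate 1 or 2 (0.00784 and 0.00779) and with only the D0 and W2 libraries in the fit (0.0390). The exons of *Irx3* overlap those of *Irx3os* on the opposite strand, and the strand of the reads is not stated.

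*Irx5* was at 58.3 and 72.2 TPM at D0, 114 and 118 at W1, 105 and 85.0 at W2, 92.0 and 54.4 at W6, and 50.5 and 47.7 at W12. The W1 and W2 libraries were above, and the W12 libraries below, both D0 libraries. It was called by the F test (adjusted *P* = 0.0147) but at no timepoint against D0, with a W1 change of 0.82 (SE 0.24, adjusted *P* = 0.0652), which passed the threshold without either W6 library (0.0157).

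*Irx1* ran lower, at 3.63 and 3.21 TPM at D0, 9.42 and 5.32 at W1, 6.85 and 6.38 at W2, 5.79 and 3.72 at W6, and 1.69 and 3.31 at W12. It too was highest at W1 and was called by the F test only (adjusted *P* = 0.0344), with a W1 change of 0.88 (adjusted *P* = 0.127).

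*Pbx4*, a TALE cofactor gene best known from testis, was lower at every later timepoint. It was at 6.04 and 5.87 TPM at D0, 1.19 and 2.10 at W1, 1.17 and 1.20 at W2, 0.746 and 1.31 at W6, and 0.564 and 0.458 at W12. No later library overlapped D0, and the W12 libraries were below all others. Mean TPM at W1 was 0.277 of that at D0 (change -1.41, SE 0.25, adjusted *P* = 0.00897) and at W12 0.0858 (change -2.20, SE 0.25, adjusted *P* = 0.000284). The changes at W2 and W6 were -1.67 (adjusted *P* = 0.00316) and -1.79 (adjusted *P* = 0.00129). The W1 call was lost without W1 replicate 1 (adjusted *P* = 0.0703) and with only the D0 and W1 libraries in the fit (0.0683). The other 3 held under each alternative fit.

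*Pbx3*, in contrast, was higher at W2, W6 and W12. It was at 3.16 and 2.47 TPM at D0, 5.12 and 5.31 at W1, 6.56 and 6.16 at W2, 7.24 and 13.7 at W6, and 5.86 and 6.79 at W12. All later libraries were above D0, and W6 replicate 2 was the highest. The W6 mean was 3.72-fold that at D0 (change 1.53, SE 0.27, adjusted *P* = 0.00393, and 0.0270 without D0 replicate 2). That call was lost with only the D0 and W6 libraries in the fit (0.0704). The W1 change of 0.71 was not called (adjusted *P* = 0.141), but was without W6 replicate 1 or 2 (0.0364 and 0.0369). At W2 the change was 0.95 (adjusted *P* = 0.0462) and at W12 0.94 (adjusted *P* = 0.0216). The W2 call was lost without any D0, W1, W2 or W12 library (adjusted *P* between 0.0595 and 0.201), under quantile normalization (0.0639) and with only the D0 and W2 libraries in the fit (0.0581), and the W12 call without D0 replicate 2 (0.107), W12 replicate 1 (0.0699) or W12 replicate 2 (0.113).

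*Pbx2*, a broadly used cofactor, was highest at W1 and W2 and lower later. Its values were 6.49 and 8.96 TPM at D0, 10.1 and 10.4 at W1, 9.51 and 10.3 at W2, 5.37 and 3.03 at W6, and 3.34 and 3.13 at W12. The late libraries lay below every earlier one. From W2 to W6 it fell by 1.103 (SE 0.25, adjusted *P* = 0.0237), against D0 it fell by 0.77 at W6 (adjusted *P* = 0.0434) and by 1.03 at W12 (adjusted *P* = 0.0108). Without D0 replicate 2 the changes against D0 were -0.56 (adjusted *P* = 0.223) and -0.82 (adjusted *P* = 0.0692). The W6 call was also lost without either W1, W2 or W12 library or W6 replicate 2 (adjusted *P* between 0.0689 and 0.181), under quantile normalization (0.0502) and with only the D0 and W6 libraries in the fit (0.229), and the change was -0.44 without W6 replicate 2. The W12 call was also lost without W12 replicate 1 (0.0525) or 2 (0.0610), and that from W2 to W6 without W2 replicate 1, W2 replicate 2 or W6 replicate 2 (adjusted *P* between 0.0752 and 0.133). An exon of *Pbx2* overlaps one of *Gpsm3* on the same strand.

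Of these 3 *Pbx* genes, *Pbx2* had the highest mean at W1 and *Pbx3* at W6.

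*Meis1*, a HOX cofactor known from blood progenitors, was lower at W2 and W6. It was at 5.73 and 10.7 TPM at D0, 4.35 and 4.90 at W1, 3.39 and 3.76 at W2, 3.30 and 4.03 at W6, and 5.40 and 4.41 at W12. All later libraries were below both D0 libraries, which differed from each other by more than any later pair. Against D0 it fell by 0.96 at W2 (SE 0.27, adjusted *P* = 0.0456) and by 0.93 at W6 (SE 0.27, adjusted *P* = 0.0299), and without D0 replicate 2 the changes were -0.56 (adjusted *P* = 0.174) and -0.53 (adjusted *P* = 0.168). The W2 call was also lost without any W1, W2 or W12 library and the W6 call without any W2 or W6 library (adjusted *P* between 0.0517 and 0.206), and the F test did not call it (adjusted *P* = 0.0633). The changes of -0.66 at W1 and -0.59 at W12 were not called (adjusted *P* = 0.169 and 0.108), but were without D0 replicate 1 (-1.06, adjusted *P* = 0.0270, and -0.99, adjusted *P* = 0.0111). Exons of *Meis1* overlap those of *Gm37818* on the same strand and *Gm16140* on the opposite strand.

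*Meis3* was highest at W1. Its values were 0.680 and 0.867 TPM at D0, 2.30 and 3.11 at W1, 1.24 and 0.734 at W2, 0.249 and 0.151 at W6, and 0.0961 and 0.595 at W12. The W1 libraries stood above all others, with a mean 3.50-fold that at D0. The W1 libraries also let the gene into the test, so the change of 1.06 (SE 0.27, adjusted *P* = 0.0437) is a description. Its call was lost without D0 replicate 2 (0.0929), with a pseudocount of 0.1 (0.148), under median-ratio scaling (0.0522) or quantile normalization (0.0729), and without D0 replicate 1 or either W1 or W2 library (adjusted *P* between 0.0718 and 0.275). *Meis2* was between 2.61 and 5.62 TPM, with its highest mean at W1, and was not called in any comparison (W1 change 0.66, adjusted *P* = 0.0967).

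*Msx1* and *Msx2*, paralogues that act downstream of BMP, moved in opposite directions. *Msx1* was at 0.667 and 0.218 TPM at D0, 0.475 and 0.449 at W1, 0.578 and 0.598 at W2, 0.825 and 4.34 at W6, and 4.34 and 4.31 at W12. W6 replicate 2 was at the W12 level and W6 replicate 1 near the earlier ones. Mean TPM at W12 was 9.77-fold that at D0 (change 1.90, SE 0.43, adjusted *P* = 0.00841), and without D0 replicate 2 the change was 1.67 (adjusted *P* = 0.0559). The W6 change of 1.13 was not called (adjusted *P* = 0.0772), but was without W6 replicate 1 (1.91, adjusted *P* = 0.00282). From W2 to W6 it was called without W6 replicate 1 (1.75, adjusted *P* = 0.00854) and from W6 to W12 without W6 replicate 2 (1.54, adjusted *P* = 0.00673). The libraries in which *Msx1* was above 1 TPM, W6 replicate 2 and both of W12, were also the 3 with the highest sums of the fibroblast list (56.4, 67.3 and 132 TPM, of which *Dcn* held 51.2, 13.2 and 27.2 and *Pdgfra*, *Col1a1* and *Lum* at most 0.199 each), the melanocyte list (12.9, 13.5 and 11.8 TPM) and the Merkel and neural list (3.16, 2.38 and 4.08 TPM). The same 3 libraries also had the highest sums of 4 bulge stem cell markers with *Cd34* (15.8, 19.1 and 35.1 TPM) and of the endothelial list (1.42, 32.5 and 75.6 TPM). The differentiating keratinocyte list was highest there too (12516, 13558 and 11942 TPM), with W6 replicate 1 close at 11937 TPM. The part of these lists in the result was not tested.

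*Msx2* was at 5.53 and 11.1 TPM at D0, 5.01 and 5.34 at W1, 4.01 and 2.98 at W2, 1.61 and 4.65 at W6, and 1.29 and 2.51 at W12. All later libraries were below both D0 libraries. At W12 its mean was 0.228 of that at D0 (change -1.65, SE 0.42, adjusted *P* = 0.0133), with -1.21 (adjusted *P* = 0.0945) without D0 replicate 2 and an adjusted *P* of 0.0970 without W12 replicate 1. The W6 change of -1.21 was not called (adjusted *P* = 0.0554), but was under median-ratio scaling (0.0452) or quantile normalization (0.0411) and without D0 replicate 1 (0.0272) or W6 replicate 2 (0.0200).

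*Dlx5*, a bone and craniofacial factor, dipped at W2. It was at 3.78 and 8.13 TPM at D0, 4.10 and 4.75 at W1, 2.20 and 2.82 at W2, 6.003 and 7.42 at W6, and 6.43 and 6.63 at W12. The W2 libraries were below all others. From W2 to W6 its mean rose 2.67-fold (change 1.13, SE 0.30, adjusted *P* = 0.0369), a call lost without either W1, W2 or W12 library or W6 replicate 2 (adjusted *P* between 0.0616 and 0.201). The D0 pair overlapped every other timepoint except W2, and no change against D0 was called. That at W2 was -0.92 (adjusted *P* = 0.0704), and was called under quantile normalization (-0.98, adjusted *P* = 0.0451) and without D0 replicate 1 (-1.38, adjusted *P* = 0.00821). *Dlx4* was between 0.510 and 1.38 TPM and was not called in any comparison (F test adjusted *P* = 0.211), and its exons overlap those of *Dlx4os* on the opposite strand.

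*Six5*, the sine oculis gene next to *Dmpk*, was the only detected sine oculis gene described. It was at 1.84 and 2.69 TPM at D0, 2.70 and 2.41 at W1, 2.46 and 1.71 at W2, 2.22 and 1.61 at W6, and 1.05 and 0.670 at W12. The W12 libraries were below all others. Against D0 it fell by 0.81 at W12 (SE 0.25, adjusted *P* = 0.0290), and without D0 replicate 2 by 0.62 (adjusted *P* = 0.154). It was also lost without W12 replicate 1 (0.0547) or 2 (0.137), and the F test did not call it (adjusted *P* = 0.0567).

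**Figure D4:**
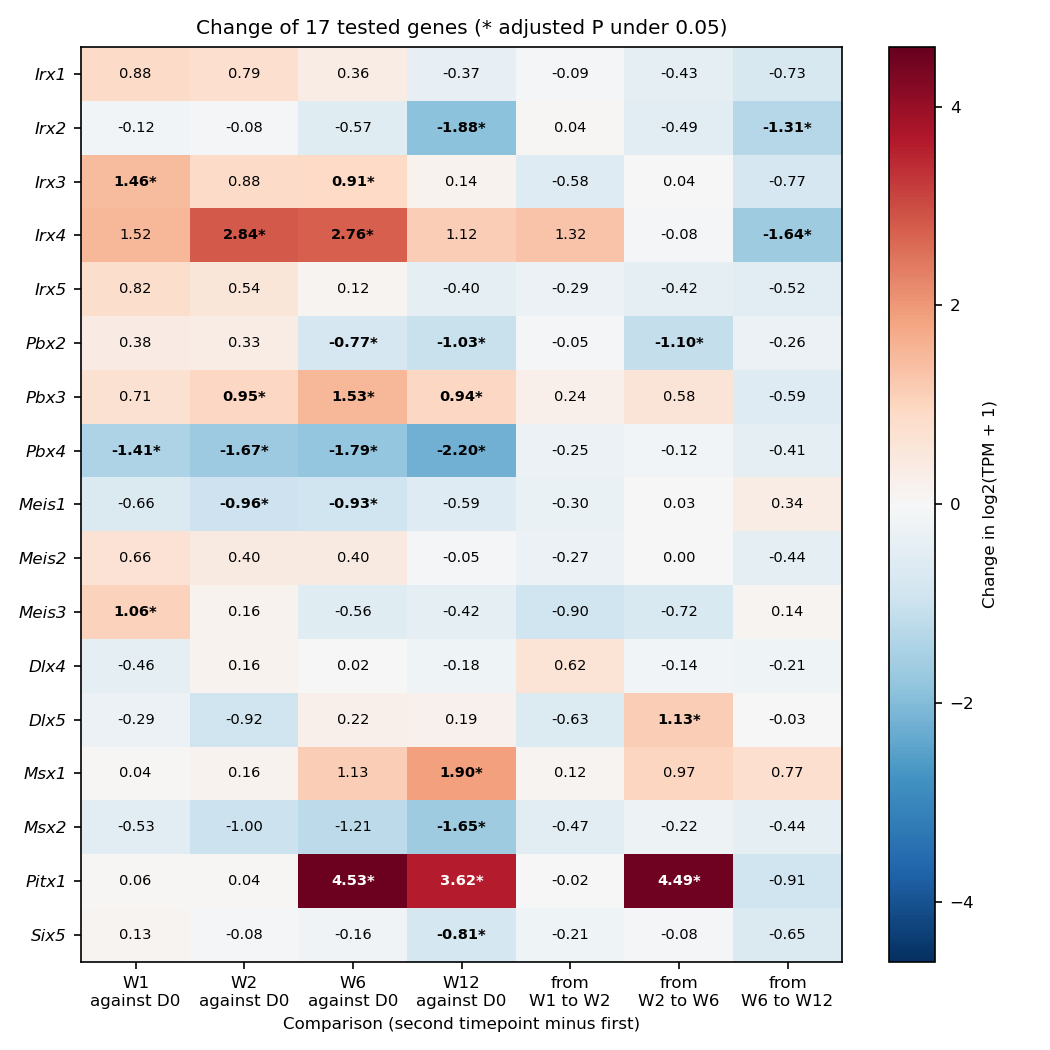
Change in log2(TPM + 1) of the 17 tested members (rows) in the 7 comparisons (columns), second timepoint minus first, as colour and number. Asterisks mark an adjusted *P* under 0.05. *Pitx1* at W6 (4.53) was the largest rise against D0 and *Pbx4* at W12 (-2.20) the largest fall.

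Partners of these families were counted in lists. Of 6 TALE partners, 4 were tested, and 0 were called by limma at W1 or W2 (0 also at an unadjusted *P* under 0.05), 3 at W6 and 2 at W12, all lower (14.1% and 25.1% of all genes were lower). *Pbxip1*, which encodes a PBX-binding protein, went from 8.87 and 20.1 TPM at D0 to 2.49 and 3.77 TPM at W12 (change -1.82, SE 0.33, adjusted *P* = 0.00277), and *Pknox1*, a TALE gene related to the *Meis* family, had a change of -0.99 (SE 0.20, adjusted *P* = 0.00504). The list's median change at W12 was -0.81 on the log2(TPM + 1) scale, beside -0.08 over all genes. With D0 replicate 2 left out, the list had 1 lower gene at W6 and 2 at W12 (7.96% and 16.9% of all genes were lower), with changes of -1.27 for *Pbxip1* (adjusted *P* = 0.00809) and -0.71 for *Pknox1* (0.0245), and the median at W12 was -0.46, beside -0.13 over all genes.

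Of 6 EYA and DACH cofactors, 3 were tested, with 0 called by limma at W1 (0 also at an unadjusted *P* under 0.05), 1 higher at W2 (9.06% of all genes) and W6 (18.3%), and 1 higher and 1 lower at W12 (17.9% and 25.1%). *Eya2*, a transcriptional coactivator and phosphatase, was at 1.01 and 0.251 TPM at D0, 1.01 and 0.779 at W1, 6.22 and 4.996 at W2, 29.3 and 26.2 at W6, and 10.9 and 22.9 at W12. No sine oculis gene described was above the 2.70 TPM of *Six5* in W1 replicate 1. The change of *Eya2* was 3.41 at W12 (SE 0.35, adjusted *P* = 0.00017), and the corepressor gene *Dach1* had one of -0.96 (SE 0.28, adjusted *P* = 0.0240). Without D0 replicate 2 the change of *Eya2* was 1.71 at W2, 3.84 at W6 and 3.07 at W12, and that of *Dach1* at W12 was -0.63. The list's median change at W12 was then 0.13, beside -0.13 over all genes tested.

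Of 11 BMP inputs and targets, 10 were tested, with 1 higher and 3 lower at W1 (5.79% and 4.10% of all genes), 1 and 4 at W2 (9.06% and 6.64%), 1 and 3 at W6 (18.3% and 14.1%), and 0 and 4 at W12 (17.9% and 25.1%). The ligand gene *Bmp4* was at 74.9 and 66.8 TPM at D0 and 8.35 and 8.15 at W12 (change -2.96, SE 0.45, adjusted *P* = 0.00132), and *Bmp2* at 49.3 and 56.2 TPM and then 6.52 and 6.77 (change -2.81, SE 0.20, adjusted *P* = 2.84e-05). With D0 replicate 2 left out, the list had 2 higher and 2 lower at W1 and at W2, 1 and 4 at W6, and 0 and 2, *Bmp4* and *Bmp2*, at W12. Of 14 other homeobox genes, 7 were tested, with 0 called by limma at W1 (4 at an unadjusted *P* under 0.05) and 3, 5 and 6 lower at W2, W6 and W12 (6.64%, 14.1% and 25.1% of all genes). *Satb1*, a chromatin organiser, had the largest change of that list at W12 (-3.71, SE 0.35, adjusted *P* = 0.000106), followed by *Pou2f3* (-2.42, SE 0.16, adjusted *P* = 2.24e-05). The median change of the 7 at W12 was -1.67, beside -0.37 over the 17 members and -0.08 over all genes tested. With D0 replicate 2 left out, the list had 1 lower gene at W2 (4.51% of all genes were lower), 5 at W6 (7.96%) and 6 at W12 (16.9%).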

How the data were processed

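The values are TPM per gene that the authors deposited for the 10 EpdSC libraries of the time course. Per the labels they come from Salmon (version 1.4.0) and Tximport (version 1.12.3), with SMARTer low-input libraries and build GRCm38. TPM hold no read number, so the depth of each library is unknown, no count model was used, and the strand of the reads is not given in the sources used here. The embryonic placode samples and their table, which holds the authors' comparison columns (fold changes and P-values), were not used here.

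Genes averaging 1 TPM or more across the 10 libraries (13110) were fitted on log2(TPM + 1) with limma (version 3.58.1, R version 4.3.3), with 1 mean per timepoint over all 10 libraries, a mean-variance trend, and Benjamini-Hochberg adjustment over all genes tested. The fit was tested on simulated data for 10 libraries, in which 200 of 13110 genes were changed at W12. The spread of each gene within timepoints was pooled over all 10 libraries and then shuffled over the genes. At W12 against D0, 37% of the genes given a log2 change of 1 were called, 82% of the genes given 2, and 3 unchanged genes. The shuffling removed the link between level and spread, and a spread that differs between timepoints was not simulated. These shares therefore need not hold for the data. Gene positions and exon overlaps come from GENCODE M21 on GRCm38, in which all 28 members described were found, and promoter windows from RefSeq on GRCm38.p6. The other 3 genes that meet the rule are not reported here. Every detected or tested member described is named, with all library values where it was called by the F test or against D0, and of each list the 2 tested genes with the largest change at W12 are named. Members and lists were chosen with earlier results of these data known. Alternatives were another pseudocount, other filters, median-ratio and quantile scaling, no trend, a minimum change, fewer libraries, a replicate block, and leaving out each library. The partner lists were fitted without D0 replicate 2 as an alternative chosen after seeing the data. Every P-value rests on 2 libraries per timepoint.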

Additional observations from a re-analysis of the deposited data

How the results depend on the processing

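Direction was kept in all 505 values of the 27 called changes under the alternatives, and 127 of these values missed the threshold. Of the 7 changes called under every alternative, 3 were those of *Pitx1*, which its late libraries let into the test and which are descriptions, and the other 4 were those of *Pbx4* at W2, W6 and W12 and of *Irx2* at W12. Of the 92 changes that were not called, 23 passed the threshold under some alternative.

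With every gene listed above 0 TPM fitted, which adjusts over more genes, 7 members were called by the F test (13 in the reported fit), 1 at W1, 1 at W2, 4 at W6, 5 at W12, 1 from W2 to W6 and 0 from W6 to W12. With a mean of at least 5 TPM, which left 8 members, 8 were called by the F test, 1 at W1, 2 at W2 and 4 at W12. Only the libraries of each comparison gave 1 at W1, 2 at W6, 1 from W1 to W2, 1 from W2 to W6 and 0 from W6 to W12, with *Meis3* and *Pbx4* lost at W1, *Meis1* and *Pbx3* at W2, *Irx3*, *Irx4*, *Meis1*, *Pbx2* and *Pbx3* at W6, *Six5* at W12, and *Dlx5* and *Pbx2* from W2 to W6. A change of at least 1 left 2 at W2 and 4 at W6. Without the W12 libraries 7 were called by the F test and 2 at W2. From W6 to W12, 1 was called with a pseudocount of 0.1, with quantile normalization and without the trend, and 0 with median-ratio scaling; the cause was not tested. That scaling moved the median change of all genes from W6 to W12 by 0.15 (quantile normalization 0.10) and the share of calls that were higher from 33.0% to 55.0% (45.8%), and at W1 from 58.6% to 47.4% (50.4%).

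Leaving out 1 library gave 8 to 14 members by the F test, 0 to 6 at W1, 2 to 6 at W2, 4 to 8 at W6, 3 to 9 at W12, 1 to 6 from W2 to W6 and 0 to 5 from W6 to W12. The lone library of a timepoint was then assumed to vary like the other groups. W1 fell to 0 without W1 replicate 1, and without either W6 library it rose to 6.

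Same-numbered libraries come from different mice, and whether they share a batch is not known. Their deviations correlated between -0.13 and 0.18. With the replicate block, 2 members were called at W2 (without *Meis1* and *Pbx3*) and 2 at W1 (without *Meis3*). At W6 the count stayed at 7, but *Pbx2* was lost (adjusted *P* = 0.0638) and *Msx2* was called (0.0383). No other count moved. With the numbers crossed for the 3 comparisons whose correlation was under -0.1, 3 were called at W1 (*Meis3* lost, adjusted *P* = 0.0603, and *Irx5* called, 0.0394), 7 at W6 and 1 from W6 to W12.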
